A study of Mus musculus with 12 samples.

Results

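The comparison described here set the livers of sons with both dietary exposures (group OO, mother and son on an obesogenic diet) against those with neither (group CC, mother and son on control diet). It used the 6 libraries of these groups, 3 in each, out of 12 in the series, and every one of the 386 rows of mature microRNA (miRNA) levels. All animals were wild-type male C57BL/6 mice, fasted and killed at 12 weeks of age, and the RNA came from whole liver. The control diet held 7% simple carbohydrate and 3% lipid by weight. The obesogenic diet held 10% and 20% and came with sweetened condensed milk of 55% simple carbohydrate, 8% lipid and 8% protein. CC sons had control-fed mothers and were weaned on day 21 onto the control diet, whereas OO sons had mothers on the obesogenic diet and were weaned onto the same. The other libraries, CO (control mother, obesogenic-fed son) and OC (obesogenic mother, control-fed son), entered the fit that estimated the spread and gave reference values.

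A miRNA is a short RNA that is cut as 1 of 2 arms (5p or 3p) from a hairpin and guides a silencing complex to messenger RNAs, mainly through its seed, bases 2 to 8 from its 5′ end. miRNAs with the same seed share many target sites, and miRNAs in 1 gene or cluster can be made from 1 precursor transcript. In liver, miR-122 is the classical hepatocyte miRNA, and miRNAs such as miR-33, which lies in the gene of the sterol regulator SREBP-2, act on cholesterol and fatty acid metabolism. Whole liver also holds stellate, endothelial, bile duct and blood cells. In such bulk RNA, fewer cells of a type and less of a miRNA per cell cannot be told apart.

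The sequences below are a selection from the 25 miRNAs with the smallest p, among those matched by name, with the seed in capitals. They show that these miRNAs carry different seeds and are not a single target-sharing family. They are RefSeq mature sequences on GRCm38.p6. Of the 25 miRNAs with the smallest p, 20 were found in that table, and miR-5099, which had the smallest p of all, was not among them.
miR-31-5p: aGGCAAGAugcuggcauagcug
miR-335-3p: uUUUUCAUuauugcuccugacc
miR-326-3p: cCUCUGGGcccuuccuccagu
miR-455-3p: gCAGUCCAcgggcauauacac
miR-182-5p: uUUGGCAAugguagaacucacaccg
miR-33-5p: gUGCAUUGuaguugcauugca
miR-582-3p: uAACCUGUugaacaacugaac

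Levels are the authors' CPM, reads of a miRNA scaled to 1000000 per library, and differences are OO minus CC on the log2(CPM + 1) scale from limma, with Benjamini-Hochberg adjustment over all 386 rows. A miRNA passed at an adjusted p under 0.05. Mature miRNAs are close to each other in length, so their CPM can be set side by side, although ligation and amplification differ between sequences. The steps between values gave depths of 13.3, 7.47 and 9.05 M reads for CC replicates 1 to 3, and of 12.0, 21.5 and 10.5 M reads for OO. The titles of the samples start with one prefix for all sons of control mothers and another for all sons of obesogenic mothers, so whatever the prefix stands for cannot be told apart from the maternal diet in OO against CC. The labels name no mother or litter, and p-values here refer to the variation among the sequenced libraries only.

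A single miRNA, miR-5099, passed the test, which is 0.259% of the rows, and it was lower in OO. Across all rows the differences were small, with a median of 0.05. Positive differences were found in 219 rows and negative ones in 167. At an unadjusted p under 0.05 there were 28 higher rows (7.25%) and 19 lower rows (4.92%). All 3 OO libraries lay above all 3 CC libraries in 54 rows, 14% of those tested, and below them in 31 rows, 8.03%. Of the separated rows, the share above was 63.5% as deposited, 57.8% with TMM scaling and 52.2% with median-of-ratios scaling, which moved the median difference to 0.03 and 0.00. The 95% interval of the difference lay between a log2 of -1 and 1 for 327 of the 386 rows, among them 51 of the 52 rows at 1000 CPM or more.

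**Figure D1:**
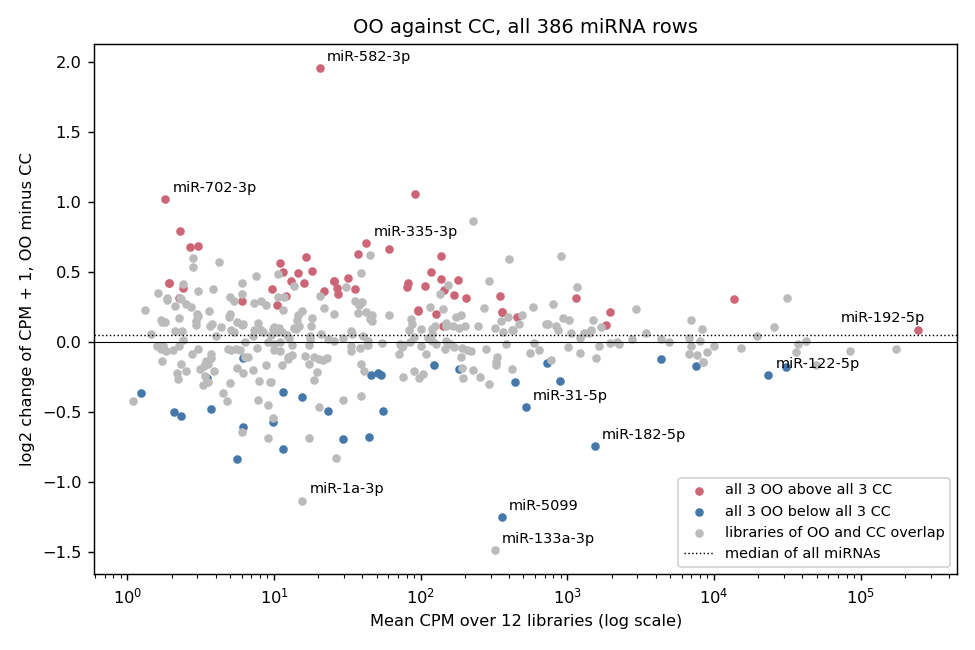
Difference between OO and CC on the log2(CPM + 1) scale (vertical axis) against the mean CPM over 12 libraries (horizontal, log scale) for all 386 miRNA rows. Red points have all 3 OO libraries above all 3 CC libraries (54 rows), blue points have all 3 below (31 rows), and grey points overlap; miR-5099 at -1.25 is the row that passed, while miR-582-3p and miR-133a-3p lie further out but vary more between libraries.

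miR-5099 fell in OO to 0.418 times its mean in CC. Its 3 CC libraries held 531, 492 and 606 CPM and its 3 OO libraries 243, 213 and 226 CPM. The groups did not overlap, and the highest OO library stood at less than the lowest CC library by more than the whole range within either group. The means were 543 ± 58.1 CPM (SD, n = 3) in CC and 227 ± 14.9 CPM in OO, a log2 difference of -1.25 (SE 0.147, 95% interval -1.57 to -0.93, limma adjusted p = 0.0011). The Mir5099 hairpin is annotated at chr12:36816205-36816278 on the plus strand (GRCm38, GENCODE vM21), outside any other annotated gene, and it has no other arm among the rows.

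Among the other diet groups, miR-5099 was low in CO and high in OC. CO held 218 ± 40.3 CPM, next to OO, and OC held 439 ± 44.0 CPM, nearer to CC (SD, n = 3 each). Against CO, OO differed by 0.07 (limma adjusted p = 0.84), and against OC by -0.95 (adjusted p = 0.0157). The difference of CO from CC was -1.32 (adjusted p = 0.000598) and that of OC from CC was -0.31 (adjusted p = 0.9999). OO-CC, CO-CC and OC-CC share the CC libraries. CO against CC and OO against OC each lie within 1 title prefix, and miR-5099 was lower in the obesogenic-fed sons in both. The last letter of the title is A for every control-fed son and, within OO, for replicate 2 alone, in which miR-5099 stood at 213 CPM, the lowest of the OO libraries. An OC son (replicate 2) and an OO son (replicate 3) carry the same number in their titles, and the labels do not say whether these sons are related. The comparison with OC missed the threshold without OC replicate 1 (adjusted p = 0.112), without OC replicate 2 (0.0519), and without OO replicate 1 (0.0520), 2 (0.0610) or 3 (0.0814).

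**Figure D2:**
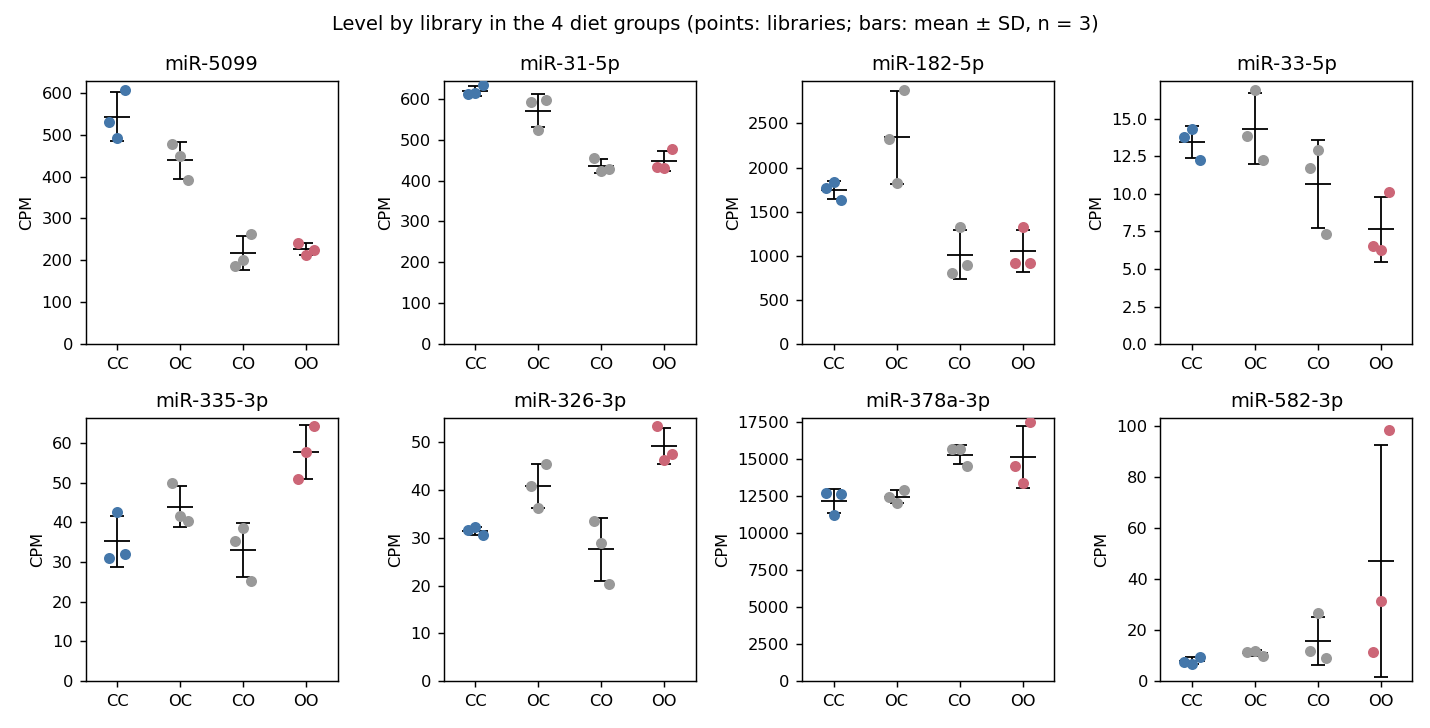
CPM of 8 miRNAs in each library (points) of CC, OC, CO and OO, with the mean and SD (bars, n = 3). For miR-5099, miR-31-5p and miR-182-5p the 3 OO libraries lie with CO and below CC and OC; for miR-335-3p and miR-326-3p they lie above the other groups; for miR-582-3p the OO libraries run from 11.4 to 98.4 CPM.

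Of the other leading rows, 9 had a negative difference and 15 a positive one, none of them past the threshold. Together with miR-5099 they make up the 25 rows with the smallest p, for which the largest adjusted p was 0.302. In 15 of the 25, OO lay wholly above CC, in 8 wholly below, and in 2 the groups overlapped. Since these rows were ranked by the same contrast, those counts describe the selection. A mean under 10 CPM was found in 5 of the 25.

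Of the lower rows, miR-31-5p was the nearest to passing. It stood at 611, 615 and 632 CPM in CC and at 434, 432 and 476 CPM in OO. The CC libraries were close to each other and all lay above the OO libraries. The difference was -0.47 (SE 0.0979, limma adjusted p = 0.0964), and CO stood at 436 ± 17.1 CPM, next to OO, with OC at 571 ± 40.7 CPM. miR-31-5p passed in 5 of 22 alternatives. It did so with TMM scaling (adjusted p = 0.0483), with median-of-ratios scaling (0.0239), with rows under 10 CPM left out (0.0453), with sample quality weights (0.00628) and without CO replicate 3 (0.0397). In the other alternatives the limma adjusted p reached 0.336, without CC replicate 3. Its hairpin lies at chr4:88910557-88910662 on the minus strand of GRCm38, in an exon of a long non-coding RNA.

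miR-182-5p belongs to a cluster with miR-183 and miR-96 that is abundant in sensory organs, and FOXO-type transcription factors are among its known targets. It measured 1771, 1833 and 1638 CPM in CC and 915, 1328 and 924 CPM in OO. OO lay below CC in all libraries, with OO replicate 2 the highest of its group. The difference was -0.75 (SE 0.217, adjusted p = 0.234 by limma). In OC the mean was 2340 ± 524 CPM, and the difference of OO from OC, -1.15, passed (adjusted p = 0.0435). That call was lost when any one OO library was left out, with adjusted p-values of 0.112, 0.0502 and 0.201 without replicates 1, 2 and 3. It was also lost without CC replicate 1 (0.0807), 2 (0.0872) or 3 (0.0755), without CO replicate 3 (0.0702), and without OC replicate 1 (0.180), 2 (0.0519) or 3 (0.259).

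The cluster partners of miR-182-5p are shown because they share its transcript but not its full seed. The seed of miR-96-5p differs from that of miR-182-5p at base 8 alone.
miR-182-5p: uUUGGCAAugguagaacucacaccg
miR-183-5p: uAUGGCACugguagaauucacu
miR-96-5p: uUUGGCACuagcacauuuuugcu
The hairpins of miR-183-5p and miR-182-5p start 3750 bases apart. miR-183-5p averaged 52.3 CPM in CC and 33.2 CPM in OO, again with OO wholly below CC, a difference of -0.68 (unadjusted p = 0.0763). miR-96-5p, at 3.70 and 2.84 CPM, overlapped between the groups, with a difference of -0.31. All 3 cluster members had a negative difference, and none passed.

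miR-33-5p is encoded in an intron of Srebf2 (hairpin at chr15:82198122-82198190 on the plus strand, GRCm38) and represses the cholesterol exporter ABCA1. It measured 13.8, 14.3 and 12.3 CPM in CC and 6.52, 6.27 and 10.1 CPM in OO. The groups did not overlap, with OO replicate 3 nearest to CC. The difference was -0.77 (SE 0.227, limma adjusted p = 0.234). It passed only with sample quality weights (-0.90, adjusted p = 0.0187) among 22 alternatives. CO stood between, at 10.6 ± 2.92 CPM, and OC at 14.3 ± 2.38 CPM.

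Of the other lower rows, miR-92a-1-5p, the minor arm of a hairpin of the miR-17-92 cluster, averaged 37.9 ± 8.27 CPM in CC and 23.3 ± 6.08 CPM in OO, a difference of -0.69. miR-511-5p, from an intron of the macrophage mannose receptor gene Mrc1, averaged 18.8 ± 1.73 and 13.97 ± 0.654 CPM, a difference of -0.40. miR-1247-5p, from an exon of Dio3os, averaged 36.9 ± 12.5 and 20.1 ± 6.55 CPM with overlapping groups. let-7c-1-3p, a passenger strand of the let-7 family, averaged 2.99 ± 0.315 and 1.83 ± 0.338 CPM. In CO it was lower still, at 1.33 ± 0.100 CPM, where its difference from CC of -0.77 passed (limma adjusted p = 0.0351). That row rested on few reads, 44, 20 and 27 in CC, and its difference of CO from CC did not pass with limma-voom. miR-143-5p and miR-184-3p completed the lower rows, at -0.45 and -0.84. Both had a mean under 10 CPM. The groups overlapped for miR-143-5p, and miR-184-3p rested on 21 reads in OO replicate 3.

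Among the higher rows, miR-335-3p had the smallest p. Its hairpin lies in an intron of Mest, an imprinted gene expressed from the paternal allele that is known as a marker of fat expansion (chr6:30741299-30741396, plus strand, GRCm38). It measured 31.0, 42.7 and 32.1 CPM in CC and 50.9, 57.7 and 64.5 CPM in OO. All OO libraries lay above all CC libraries. The difference was 0.70 (SE 0.188, adjusted p = 0.233 by limma). The other groups stood at 33.1 ± 6.90 CPM (CO) and 44.0 ± 5.29 CPM (OC).

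miR-326-3p, from an intron of the beta-arrestin gene Arrb1 (chr7:99552269-99552363, plus strand, GRCm38), followed a like order of groups. It measured 31.7, 32.3 and 30.6 CPM in CC and 53.5, 46.4 and 47.6 CPM in OO. The lowest OO library exceeded the highest CC library by more than the range within either group. The difference was 0.62 (SE 0.173, limma adjusted p = 0.233). It passed in 2 of 22 alternatives, with sample quality weights (0.0339) and without CO replicate 3 (0.0397), and in the others the limma adjusted p reached 0.467. CO averaged 27.6 ± 6.64 CPM and OC 40.9 ± 4.61 CPM, and OO differed from CO by 0.84 (adjusted p = 0.165).

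miR-330-5p has the seed of miR-326-3p and lies elsewhere in the genome, so the pair is shown together.
miR-326-3p: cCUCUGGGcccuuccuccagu
miR-330-5p: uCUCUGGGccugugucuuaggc
miR-330-5p averaged 13.7 ± 2.01 CPM in CC and 15.9 ± 3.27 CPM in OO, with overlapping groups and a difference of 0.19. Summed, the seed family of both measured 43.5, 45.8 and 46.4 CPM in CC and 67.7, 60.3 and 67.3 CPM in OO.

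miR-455-3p, from an intron of the collagen gene Col27a1, measured 94.1, 103 and 104 CPM in CC and 145, 127 and 154 CPM in OO, a difference of 0.50. miR-210-3p, the miRNA best known for its induction by hypoxia, measured 28.6, 28.2 and 28.1 CPM in CC and 34.7, 39.0 and 44.2 CPM in OO, a difference of 0.45. In neither did the groups overlap, and the adjusted p-values were 0.233 and 0.275 (limma).

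miR-378a-3p was the most abundant of the 25. It comes from an intron of Ppargc1b, the gene of a coactivator of mitochondrial and fatty acid metabolism. It measured 12674, 11200 and 12618 CPM in CC and 14552, 13348 and 17469 CPM in OO. OO lay above CC in all libraries, with OO replicate 3 the highest. The difference was 0.31 (SE 0.103, limma adjusted p = 0.287), and CO, at 15293 ± 657 CPM, stood with OO, while OC, at 12460 ± 449 CPM, stood with CC. The minor arm, miR-378a-5p, averaged 71.8 ± 4.28 CPM in CC and 95.8 ± 20.9 CPM in OO, a difference of 0.39.

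miR-199a-5p and miR-214-5p can both be made from the non-coding transcript Dnm3os, a known product of stellate cells and other mesenchyme. miR-199a-5p measured 173, 167 and 141 CPM in CC and 214, 218 and 220 CPM in OO. miR-214-5p measured 11.6, 8.17 and 6.85 CPM in CC and 13.3, 13.7 and 12.9 CPM in OO. Both had OO wholly above CC, with differences of 0.44 and 0.56 (adjusted p = 0.288 for each by limma). Their starts lie 5554 bases apart on chromosome 1, and a further copy of miR-199a lies on chromosome 9, so reads of miR-199a-5p cannot be assigned to 1 of the hairpins. The main arm miR-214-3p differed by 0.39, with overlapping groups.

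miR-222-3p and miR-15b-5p each share a seed with a more abundant miRNA that has a hairpin nearby. They are printed with that neighbour to show the shared seed.
miR-222-3p: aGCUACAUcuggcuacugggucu
miR-221-3p: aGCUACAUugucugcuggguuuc
miR-15b-5p: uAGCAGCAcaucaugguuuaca
miR-16-5p: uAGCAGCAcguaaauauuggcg
miR-222-3p measured 113, 127 and 112 CPM in CC and 139, 144 and 207 CPM in OO, a difference of 0.45, whereas miR-221-3p, at 376 ± 11.3 and 427 ± 37.5 CPM, differed by 0.18 with overlapping groups. miR-15b-5p, from an intron of Smc4, measured 89.3, 92.5 and 97.7 CPM in CC and 105, 120 and 147 CPM in OO, a difference of 0.40. miR-16-5p, at 8264 ± 715 and 8787 ± 556 CPM, differed by 0.09, and the further members with this seed, miR-15a-5p, miR-195a-5p and miR-322-5p, by 0.13, 0.23 and 0.13, all with overlapping groups. A further copy of miR-16 lies on chromosome 14, so reads of miR-16-5p cannot be assigned to the hairpin near miR-15b. Within each printed pair the less abundant member had the larger difference, and the difference between members was not tested.

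miR-582-3p had the largest positive difference of all rows. Its hairpin sits within an intron of Pde4d, which encodes a phosphodiesterase (chr13:109324744-109324824, plus strand, GRCm38). It measured 7.29, 6.83 and 9.50 CPM in CC and 11.4, 31.2 and 98.4 CPM in OO. The groups did not overlap, but the OO libraries spanned 8.66-fold. The difference was 1.95 (SE 0.595, 95% interval 0.65 to 3.26, limma adjusted p = 0.242). It passed in 1 of 22 alternatives, without OO replicate 1, at 2.68 (limma adjusted p = 0.0368), and was 1.18 without OO replicate 3.

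At the low end, miR-702-3p and miR-3068-5p rested on few reads. The values of miR-702-3p stood for 14, 4 and 12 reads in CC and for 27, 53 and 46 reads in OO, and its hairpin overlaps an exon of Plod3. Those of miR-3068-5p stood for 32, 9 and 8 reads in CC and for 34, 88 and 29 reads in OO, and its hairpin overlaps an annotated small nucleolar RNA in an intron of Alkbh1. Their differences were 1.02 and 0.79 (adjusted p = 0.233 for each by limma). miR-3068-5p passed in 1 of 21 alternatives, without CC replicate 1, at 1.04 (limma adjusted p = 0.0438). Of the other higher rows, miR-1839-3p (0.51) overlaps an annotated small Cajal body RNA. miR-450b-5p (0.43) lies next to miR-450a-5p (0.42) on the X chromosome, and miR-1947-5p (0.50) lies in an intron of Lmln.

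For the whole table, OO differed from CO in 0 rows (0%) and from OC in 2 rows (0.518%), miR-5099 and miR-182-5p, and CO differed from CC in 3 rows (0.777%), let-7c-1-3p, miR-5099 and miR-31-5p. OC differed from CC in 0 rows (0%). At an unadjusted p under 0.05 these limma contrasts held 47, 28, 63 and 4 rows. With limma-voom the adjusted counts were 0, 2, 2 and 0. The interaction, which asks whether the son's diet had another effect under obesogenic than under control mothers, passed in 0 rows, with 15 at an unadjusted p under 0.05 and 0 passing with limma-voom. An adjusted p above the threshold does not show that OO and CO were alike.

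The ratio of the 5p to the 3p arm of a hairpin does not depend on library scaling. Of 99 hairpins with both arms measured, 0 passed (0%) with limma, and 9 had an unadjusted p under 0.05. The ratios of OO and CC did not overlap in 18 hairpins (18.2%), 9 in each direction. The 5 hairpins with the smallest p were miR-335, miR-222, miR-455, miR-210 and miR-33, all with a lower ratio in OO and an adjusted p of 0.195.

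Both arms are shown for 3 of these hairpins, because the positive difference belonged to the 3p arm in miR-335 and miR-455 and the negative one to the 5p arm in miR-33.
miR-335-5p: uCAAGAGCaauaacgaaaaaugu
miR-335-3p: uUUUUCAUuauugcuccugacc
miR-455-5p: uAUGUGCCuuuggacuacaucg
miR-455-3p: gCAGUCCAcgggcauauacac
miR-33-5p: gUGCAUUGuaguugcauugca
miR-33-3p: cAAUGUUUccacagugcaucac
For miR-335, the 5p to 3p ratio was 3.42, 2.40 and 2.87 in CC and 2.32, 1.90 and 1.89 in OO, since the 5p arm differed by 0.22 and the 3p arm by 0.70. For miR-455 it was 1.25, 1.32 and 1.12 in CC and 0.860, 1.02 and 0.744 in OO, and its 5p arm differed by 0.00. For miR-33 it was 3.33, 2.74 and 3.83 in CC and 1.39, 1.48 and 2.59 in OO, and its 3p arm, at 4.02 CPM over the 12 libraries, differed by 0.04. None of these 3 ratios overlapped between the groups. The minor arms of miR-222, miR-210 and miR-33 averaged only 4.51, 3.87 and 4.02 CPM over the 12 libraries, so their ratios carry more counting error.

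**Figure D3:**
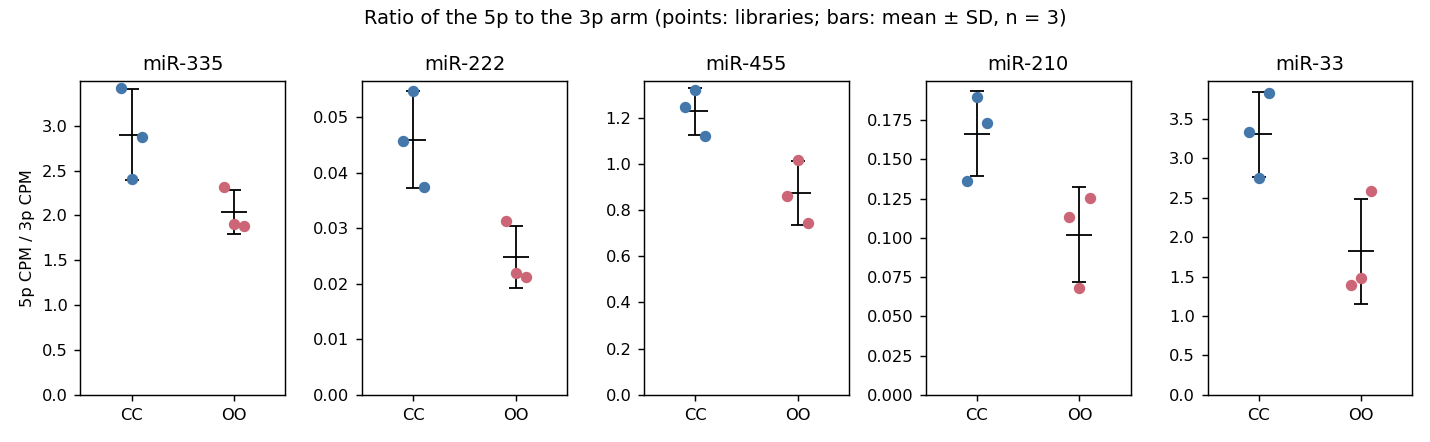
Ratio of 5p CPM to 3p CPM (vertical axis, from 0) in each CC and OO library (points) for the 5 hairpins with the smallest p, with mean and SD (bars, n = 3). The OO libraries lie below the CC libraries for each of these 5 hairpins, which were chosen by p, and 0 of 99 hairpins passed.

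Grouping rows by seed gave 259 families from the 322 rows with a RefSeq sequence, so families with unmatched rows are incomplete. In limma, 0 families passed (0%), with 30 at an unadjusted p under 0.05. The 5 smallest p-values belonged to families of 1 row, those of miR-31-5p, miR-335-3p, miR-702-3p, miR-3068-5p and miR-455-3p. Among the 37 families of several rows, differences ran from -0.28 to 0.51 with a median of 0.02, and 19 were positive. The upper end was the miR-326-3p and miR-330-5p family, and the lower end was that of miR-30a-3p and miR-30e-3p, at 1546, 1530 and 1467 CPM in CC and 1251, 1173 and 1316 CPM in OO.

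The main body of the liver miRNA pool was close between the groups. The 10 most abundant rows made up 74.8 ± 0.548% of the summed CPM in CC and 74.9 ± 0.774% in OO (SD, n = 3). miR-192-5p, a miRNA of liver and gut epithelium, led with 22.8, 23.7 and 23.5% in CC and 24.8, 25.05 and 24.5% in OO. Its libraries did not overlap, yet the difference was 0.09 (limma adjusted p = 0.769). miR-22-3p followed with 18.1% and 17.5% and miR-148a-3p with 8.54% and 8.16%. miR-30a-5p, miR-10a-5p and miR-27b-3p, also among the 10, differed by 0.01, -0.02 and 0.11. miR-21a-5p, a miRNA raised in injured and regenerating liver, held 4.44, 5.18 and 5.10% in CC and 5.20, 4.81 and 3.32% in OO, where the low value was that of OO replicate 3.

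The defining miRNAs of hepatocytes were present at high levels in all libraries. miR-122-5p measured 25255, 25112 and 23582 CPM in CC and 22499, 20303 and 19991 CPM in OO. OO lay wholly below CC, with a difference of -0.24 (SE 0.115, limma adjusted p = 0.413). Among the 13 measured members of the hepatocyte list, 6 had a positive and 7 a negative difference, with a median of -0.01 against 0.05 over all rows. miR-802-5p, which is known to be raised in livers of obese mice, had a difference of 0.59, but its range in OO, 293, 401 and 918 CPM, enclosed 2 of the 3 CC values of 447, 237 and 296 CPM.

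Lists for metabolism were mixed in direction, and no member passed. In the sterol and fatty acid list, 9 of 19 rows were positive (219 of 386 over all rows), and the median was -0.02. OO lay wholly above CC in 4 of the 19, against 14% of all rows, and wholly below in 4, against 8.03%. Its lower members were miR-122-5p, miR-182-5p with its cluster partner miR-183-5p, and miR-33-5p, and its higher ones were both arms of miR-378a, miR-223-3p and miR-106b-5p. Some of these share a hairpin or a cluster, and the list was chosen with earlier results of these data known. Its counts therefore carry no weight of their own. In the list of insulin signalling and glucose metabolism, 9 of 16 were positive with a median of 0.01. miR-26a-5p, which is known to raise hepatic insulin sensitivity, measured 35697, 32363 and 34125 CPM in CC and 30947, 31357 and 27967 CPM in OO, a difference of -0.18. miR-107-3p and miR-103-3p, which are known to lower insulin sensitivity, differed by 0.39 and 0.16 with overlapping groups.

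The let-7 miRNAs, which restrain growth and insulin signalling genes, showed no common direction. Of 9 main arms, 6 were positive with a median of 0.06, and of 10 passenger arms, 6 were positive with the same median of 0.06. With median-of-ratios scaling both medians were 0.01. let-7f-5p, the most abundant, measured 17633, 29729 and 31262 CPM in CC and 28680, 32782 and 33324 CPM in OO. CC replicate 1 was far below the other 5 libraries, and the difference of 0.31 had an adjusted p of 0.582 (limma). let-7a-5p, let-7g-5p and let-7c-5p differed by 0.00, -0.03 and 0.00.

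**Figure D4:**
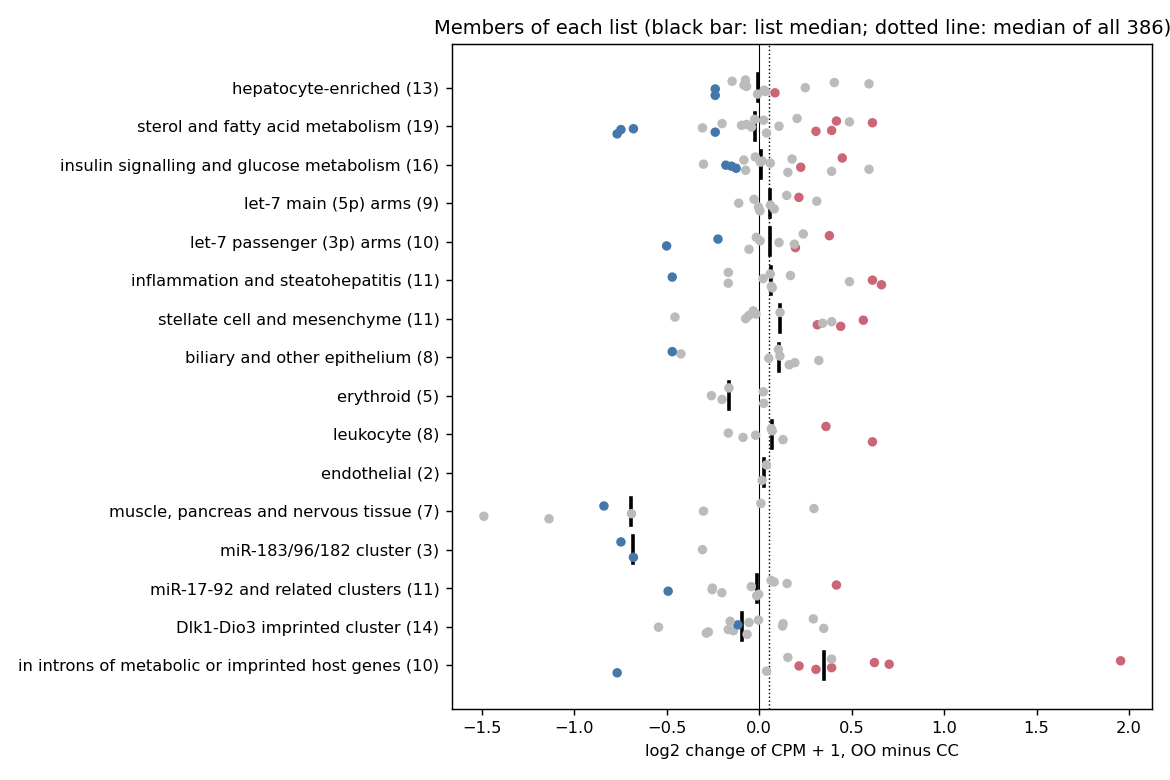
Difference between OO and CC on the log2(CPM + 1) scale for each measured member (points) of 16 lists, with the number of members in parentheses, the list median (black bar) and the median of all 386 rows (dotted line). Red and blue points have OO wholly above and wholly below CC; most list medians lie near the dotted line, with the muscle, pancreas and nervous tissue list at -0.69 and the miR-183 cluster at -0.68 furthest below.

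Among inflammatory and leukocyte miRNAs, miR-223-3p, a miRNA of neutrophils and macrophages, measured 117, 123 and 108 CPM in CC and 152, 193 and 190 CPM in OO, a difference of 0.61 (limma adjusted p = 0.306). miR-146b-5p, which is induced by inflammatory signals, measured 39.8, 42.0 and 50.4 CPM in CC and 56.0, 65.9 and 92.6 CPM in OO, a difference of 0.66. In both OO lay wholly above CC. Of the other leukocyte rows, miR-342-3p also had OO wholly above CC, with a difference of 0.36. miR-142-5p, miR-142-3p, miR-150-5p and miR-155-5p differed by -0.02, -0.09, -0.17 and 0.07 with overlapping groups, and the summed level of the 8 rows was 2850 to 3543 CPM in CC and 3069 to 3413 CPM in OO. The inflammation list had 8 of 11 rows positive with a median of 0.07. In it OO lay wholly above CC in 2 rows and wholly below in 1. In the leukocyte list OO lay wholly above CC in 2 of the 8 rows and wholly below in 0. Over all rows these shares were 14% and 8.03%.

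Lists that mark other cell types overlapped between the groups in summed level. The 11 stellate and mesenchymal rows summed to between 32988 and 50807 CPM in CC and between 35383 and 38583 CPM in OO, with a median difference of 0.11. Most of these sums was miR-143-3p, at a mean of 36163 CPM over the 12 libraries, so they say little on the other rows. Within that list 6 rows were positive and 5 negative. The miR-199 and miR-214 rows had differences from 0.31 to 0.56, whereas miR-143-3p and miR-145a-5p, of smooth muscle and mesenchyme, differed by -0.07 and -0.06. The lowest difference of the list was that of miR-143-5p, -0.45. The endothelial pair, both arms of miR-126, differed by 0.02 and 0.04. The 5 erythroid rows summed to 2870 to 4266 CPM in CC and 2950 to 4543 CPM in OO, and the 8 epithelial rows to 2646 to 2976 and 2723 to 2970 CPM. The part of these cell types in the leading differences was not tested.

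Muscle and endocrine miRNAs varied between single libraries in both groups. The heart and skeletal muscle miRNA miR-133a-3p stood at 743, 70.8 and 419 CPM in CC and at 1137, 20.5 and 40.7 CPM in OO, and miR-1a-3p at 32.2, 2.68 and 24.8 CPM and at 49.2, 0.743 and 2.39 CPM. The high libraries were the same for both, CC replicates 1 and 3 and OO replicate 1. The differences of -1.49 and -1.14 had SEs of 1.40 and 1.23. miR-375-3p, a miRNA of pancreatic islets and gut endocrine cells, stood at 17.7, 197 and 18.02 CPM in CC and at 40.0, 51.2 and 16.6 CPM in OO. The muscle, pancreas and nervous tissue list as a whole, 7 rows, had 5 negative differences, a median of -0.69, and sums of 285 to 824 CPM in CC and 67.0 to 1269 CPM in OO. Its defining miRNAs miR-206-3p, miR-216a-5p, miR-217-5p and miR-124-3p were not among the rows and are not analysed here. In OO replicates 1 to 3, miR-5099 stood at 243, 213 and 226 CPM, in the same order as miR-133a-3p and miR-1a-3p, and CC replicate 2 was the lowest of its group for all 3 miRNAs. Within CC, however, miR-5099 was highest in replicate 3 and both muscle miRNAs in replicate 1. Between the groups, OO replicate 1, with 1137 CPM of miR-133a-3p, held less miR-5099 than CC replicate 2, with 70.8 CPM of miR-133a-3p. The part of muscle RNA in the difference of miR-5099 was not tested.

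Further lists grouped rows by genome position. Of 10 rows in introns of metabolic or imprinted host genes, 9 were positive and 6 had OO wholly above CC, against 219 of 386 and 14% over all rows, and the median was 0.35 against 0.05. This list was drawn up with the leading rows known, so its count carries no weight of its own. In the miR-17-92 and related clusters, 4 of 11 were positive with a median of -0.01, and miR-19a-3p, at 26.1 CPM in CC and 18.3 CPM in OO, had OO wholly below CC (-0.49). The imprinted Dlk1-Dio3 cluster had 4 positive and 10 negative differences with a median of -0.09, and 1 of its 14 rows had OO wholly below CC, against 8.03% of all rows.

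On the deposited scaling, OO libraries differed among themselves somewhat more than CC libraries. Over the 261 rows at 10 CPM or more, the median log2 SD was 0.166 in OO and 0.120 in CC, and 153 rows had the larger SD in OO. The median ratio of the highest to the lowest library was 1.25 in OO and 1.17 in CC. OO replicate 3 held the group's highest value in 144 of the 261 rows, OO replicate 2 in 79 and OO replicate 1 in 38, while the CC libraries held 94, 73 and 94. Without OO replicate 3 the median difference over all 386 rows was 0.01. In 14 rows of OO and 15 of CC the highest library was over 2 times the lowest.

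The rows with the widest range in OO were miR-1a-3p (66.2-fold), miR-133a-3p (55.5-fold), miR-582-3p (8.66-fold), miR-592-5p (5.91-fold) and miR-34a-5p (3.91-fold). miR-34a-5p, a target of p53 that is raised in fatty liver disease, measured 28.02, 42.9 and 109 CPM in OO against 29.2, 41.0 and 39.2 CPM in CC, so that OO replicate 3 alone stood out. The widest rows in CC were miR-6240 (12.4-fold), miR-1a-3p (12.0-fold), miR-375-3p (11.2-fold), miR-133a-3p (10.5-fold) and miR-5109 (7.66-fold). miR-6240 and miR-5109 were both highest in CC replicate 3, at 324 and 600 CPM.

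**Figure D5:**
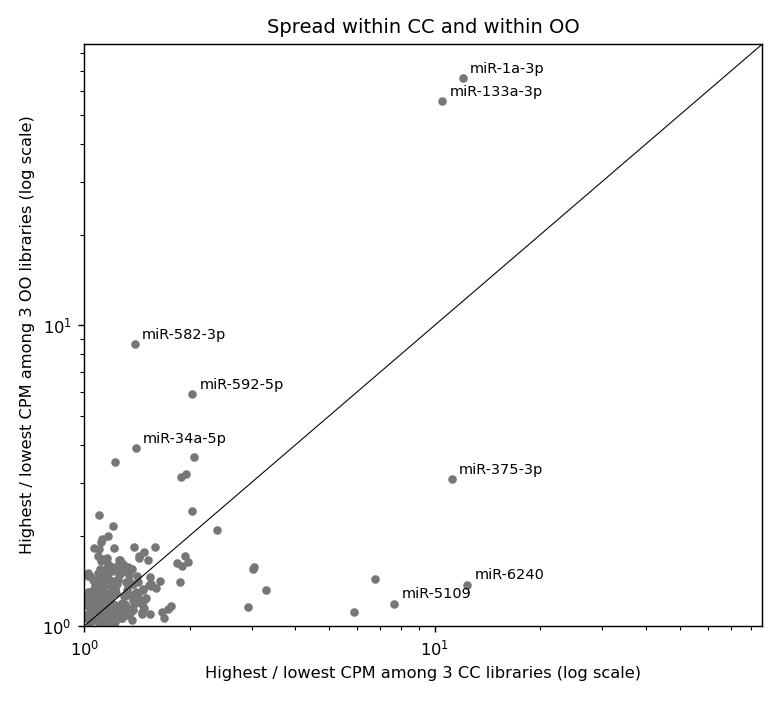
Ratio of the highest to the lowest CPM among the 3 CC libraries (horizontal axis, log scale) and among the 3 OO libraries (vertical axis, log scale) for the 261 rows with a mean of 10 CPM or more; the diagonal marks equal ratios. Most rows lie near the lower left corner, miR-1a-3p and miR-133a-3p are wide in both groups, and miR-582-3p is wide in OO only (8.66-fold against 1.39-fold).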

How the data were processed

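Small RNA libraries from the livers of 12 mice (TruSeq small RNA kit, per the labels) were compared as 4 groups of 3, with OO minus CC as the main contrast. The authors deposited 1 table of CPM for 386 miRNA rows. Per the submitters' processing notes, Bowtie 1.2.3 was among the tools. Neither the reference used for mapping nor the handling of reads with several matches is stated (genome build: not given in the sources used here). All values were whole multiples of 1 step per library within 0.001 reads, which gave depths of 5.45 to 22.2 M reads (median 13.2 M). Columns summed to 0.866 to 1.17% above 1000000. No value was at 0, 125 rows had a mean under 10 CPM, 4 rows named several miRNAs, and 6 formed 3 identical pairs.

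limma 3.58.1 (R 4.3.3) was fitted to log2(CPM + 1) of all 12 libraries using 1 mean per group, a mean-variance trend and Benjamini-Hochberg adjustment over all rows, two-sided. This scale understates changes of low rows. Arm ratios and summed seed families were fitted likewise, the ratios without a trend. The fit was run on simulated data in which a large share of the miRNAs was changed, and no result here rests on that run. Figures and tables used Python 3.11.15 with pandas 2.3.3, numpy 2.4.6 and matplotlib 3.10.9. Positions are from GENCODE vM21 (GRCm38) by miRNA gene name. Rows named are those that passed, then the smallest p up to 25, the 10 most abundant rows, miR-122-5p and miR-582-3p. The 5 leading hairpins and families and the 5 widest rows within each group are named as well. The 4 most abundant of each list were to be named too, but only some of them are described. Others named as neighbours, seed partners, list members or arms were chosen after their values were seen. The comparison, the lists and the tests were chosen with earlier results of these data known.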

Additional observations from a re-analysis of the deposited data

How the results depend on the processing

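The OO-CC difference of miR-5099 lay between -1.32 and -1.16 and passed under each of 22 alternatives (adjusted p 1.03e-04 to 0.0109). The count of passing miRNAs, 1 as reported, was 2 with TMM factors, 2 with median-of-ratios factors and 2 with rows under 10 CPM left out (miR-31-5p added), 2 with log2 depth as a covariate (miR-338-3p added), and 4 with sample quality weights. It ran from 1 to 3 when each library was left out, with 3 without CO replicate 3, 2 without OO replicate 1 and 2 without CC replicate 1. For OO-OC the count of 2 became 1 with no trend, 1 with log2 depth as a covariate and 4 with sample quality weights, and 0 to 2 when each library was left out. For OO-CO the count of 0 ran from 0 to 2, the 2 being miR-3084-3p and miR-335-5p without CO replicate 2. Seed families, 0 as reported, were 1 with TMM factors, 1 with median-of-ratios factors, 1 with log2 depth as a covariate and 13 with sample quality weights, and 0 to 9 when each library was left out, the 9 without CO replicate 3. Arm ratios stayed at 0 under each alternative run. Except where fewer rows were tested or fewer libraries fitted, the cause of these changes was not tested. Over the 25 named miRNAs and up to 22 alternatives each, 535 values kept their direction and side of the threshold, 10 values of 5 miRNAs newly passed and 0 reversed. Leaving out a library leaves 2 in its group. No paired analysis was possible because the replicate numbers follow accession order and the labels state no pairing of sons across groups; the title number shared by OC replicate 2 and OO replicate 3 makes fewer than 2 pairs. The planned edgeR and DESeq2 alternatives were not run. limma-voom on the reads that the CPM steps imply gave 1 passing miRNA and 50 at an unadjusted p under 0.05. Depth limits the 125 rows under 10 CPM. On the log2(CPM + 1) scale their 95% interval lay between -1 and 1 in 98, against 178 of 209 rows at 10 to 1000 CPM. This scale understates changes of low rows, so the 98 need not lie within 2-fold in CPM.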
